A study of Homo sapiens with 12 samples.

Results

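The extracellular matrix and stellate cell genes described here were 46 genes chosen by symbol: collagens, laminins and other basement membrane proteins, proteoglycans, matrix-remodelling enzymes and their inhibitors, markers of stellate, mesenchymal and endothelial cells, and integrin subunits. Every probe that the platform annotation paired with one of these symbols was taken, which gave 68 probes of 45 genes. LAMA3, a laminin chain of epithelial basement membranes, was not analysed here. A probe was analysed when its detection p-value, which sets its signal against negative control beads, was under 0.05 on at least 4 of 12 arrays. This kept 34 probes of 28 genes, out of 18646 such probes and 10891 named genes on the whole array.

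The series hybridised RNA from Huh7, a long-established human hepatoma cell line, to 12 Illumina bead arrays. The groups were compared after 24 h: cells given recombinant human erythroferrone (human ERFE, 10 µg/ml, n = 4), cells given recombinant mouse erythroferrone (mouse ERFE, 10 µg/ml, n = 4), and untreated cells (n = 4). ERFE is a hormone that red cell precursors secrete, known for lowering hepcidin in the liver. All groups are one cell line in one medium, and no group given a carrier or another protein is among the 12 arrays. Whether arrays of the same group came from separate cultures is not stated in the labels, and each p-value therefore measures array-to-array spread that may be technical in origin. The mouse ERFE group has replicate 3 listed for a pair of arrays, told apart here as 3-A4 and 3-B4 by their title codes.

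The extracellular matrix is the mesh of collagens, laminins, glycoproteins and proteoglycans that surrounds cells, and integrins are the receptors by which cells hold on to it. In liver, hepatic stellate cells of the space of Disse are the main source of fibrillar collagen once they turn into myofibroblasts, while hepatocytes make fibronectin and some basement membrane chains. Huh7 cells are of hepatocyte type.

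Stellate cell markers were detected only in part in these cells, and the genes of the group are called matrix genes here. DES (desmin, an intermediate filament of stellate cells) and ACTA2 (smooth muscle actin of myofibroblasts) were detected on 0 of 12 arrays, and so were COL1A1 and COL3A1, the major fibrillar collagen chains of scar. Among 18 listed stellate cell and fibroblast markers, 8 were detected on 0 arrays (GFAP, HGF, DES, ACTA2, COL1A1, COL3A1, THY1 and FAP) and 2 had a probe detected on all 12. LRAT, HAND2, RELN, CYGB, PDGFRB, COL1A2, LUM and DCN were the 8 analysed. By their most often detected probe, RELN and LUM were on 12 arrays, HAND2 on 11 and CYGB on 9. COL1A2 was on 7, DCN on 6, and LRAT and PDGFRB on 4 each. Among 13 endothelial markers, 11 were detected on 0 arrays, including CDH5, VWF and KDR, and PECAM1 was the 1 analysed. By contrast, all 13 hepatocyte markers with a probe, such as ALB, APOA1 and TTR, were detected on all 12 arrays.

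Between 34.5% and 39.1% of 47323 probes were detected per array, and the median deposited intensity ran from 139.5 to 186.3. The arrays differed in transcripts of antigen-presenting cells. The mean log2 signal of 8 MHC class II probes (6 genes, HLA-DRA and CD74 among them) lay between 6.21 and 8.04 on human ERFE arrays, 5.83 and 8.81 on mouse ERFE arrays, and 5.37 and 9.21 on untreated arrays. It was 8.77, 9.21 and 8.34 on untreated 1, 2 and 3 but 5.37 on untreated 4, so this level split the untreated group. HLA-DRB1, HLA-DPB1 and CIITA of the same list were detected on 0 arrays. Its part in the differences reported here was not tested beyond a fit with this level as a covariate.

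Most of the group was either seen on every array or on none. Of the 68 probes, 26 probes of 22 genes were detected on all 12 arrays, 8 on 4 to 11 arrays, and 29 on 0 arrays. In 14 genes every probe was on 0 arrays. These were the fibrillar chains COL1A1 and COL3A1, the basement membrane chains COL4A1, COL4A2, LAMA1 and LAMB3, the microfibril collagen COL6A2, the laminin linker NID2, the heparan sulphate proteoglycan HSPG2 (perlecan), the proteases MMP2 and MMP14, the lysyl oxidase family enzyme LOXL2, and DES and ACTA2. COL6A1, COL12A1 and SPARC (a collagen-binding matricellular protein) reached detection on 3 arrays at most. The smallest detection p-value among the probes on 0 arrays was 0.0558, and their normalized log2 signals lay between 4.39 and 5.39. The detection p-value orders probes by signal within an array. All 348 of these values were therefore bound to lie below the lowest detected signal of their own array (5.30 to 5.53). A probe that does not reach detection says only that its transcript was not detectable with that probe.

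**Figure D1:**
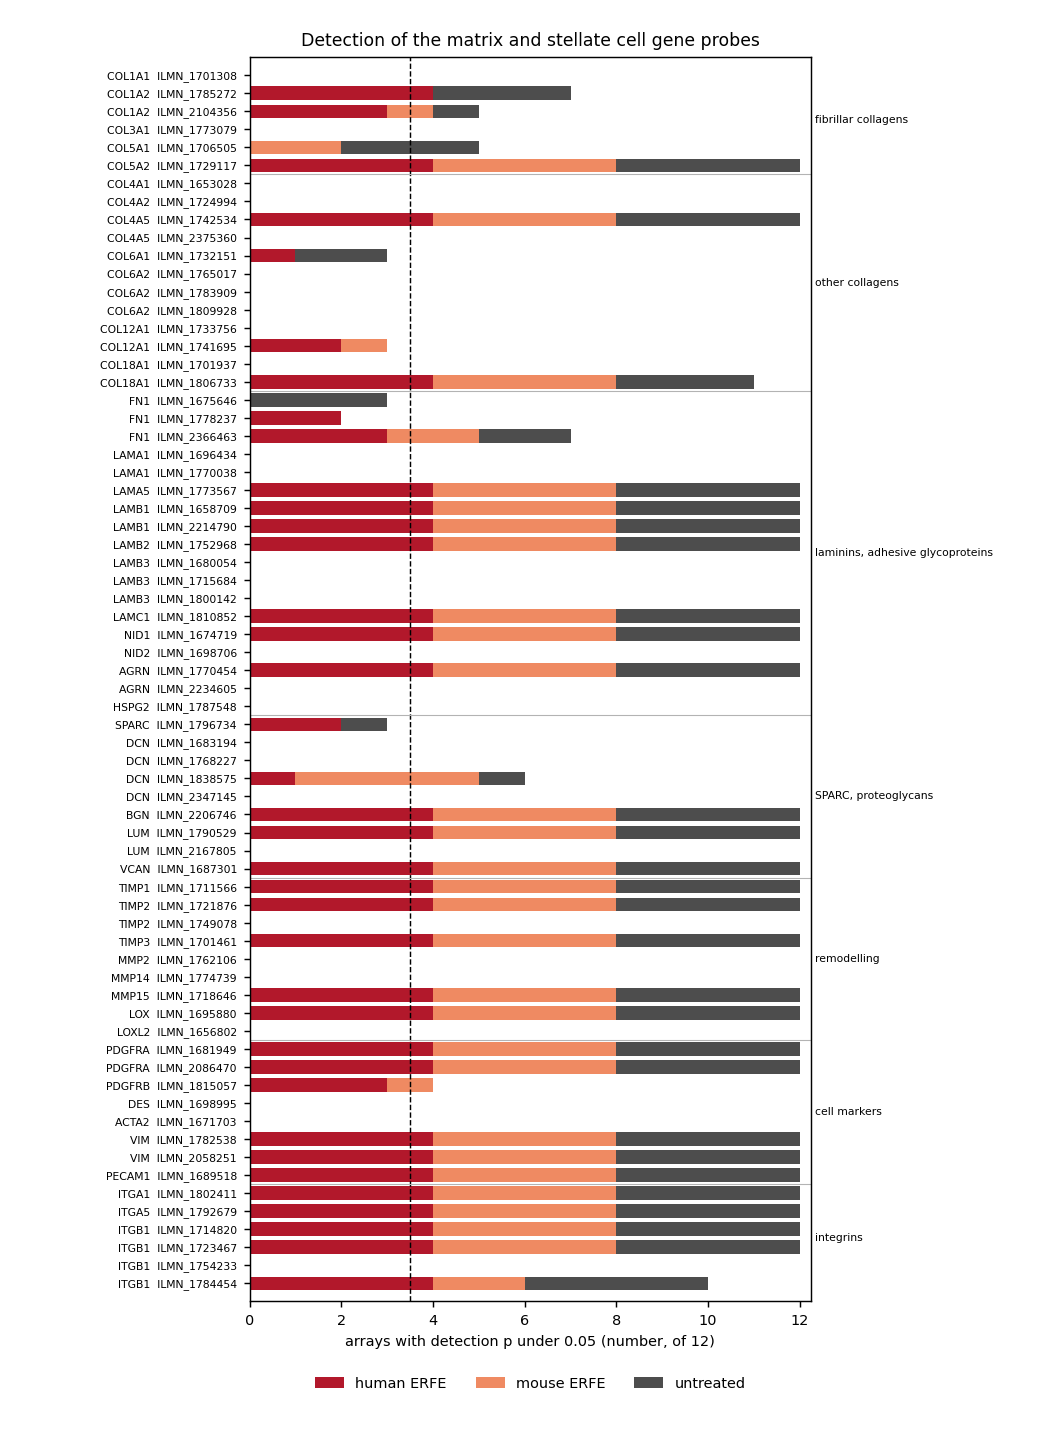
Number of arrays (of 12, horizontal axis) on which each of the 68 probes had a detection p-value under 0.05, stacked by group in the order human ERFE, mouse ERFE, untreated; the dashed line separates probes on 3 arrays or fewer from those analysed. The 26 full bars and 29 empty ones leave 13 probes in between, among them COL1A2, COL5A1, DCN, FN1 and PDGFRB.

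No probe of the matrix genes passed the test in any comparison. With limma fitted to all 18646 probes, 0 of the 34 probes passed an adjusted p-value of 0.05 with human ERFE against untreated (0.0912% of all probes passed), and 0 passed with mouse ERFE against untreated (0.123% of all). Likewise 0 passed between human ERFE and mouse ERFE (0.00536% of all), and 0 passed with both ERFE proteins averaged against untreated (0.156% of all). The smallest adjusted p-values of the 34 probes in limma were 0.527, 0.178, 0.866 and 0.189 in that order. Since the treated groups share the untreated arrays, their differences from it are given side by side and not as separate evidence.

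At an unadjusted limma p-value under 0.05, 6 of the 34 probes passed with human ERFE against untreated, where 6.64% of all probes did. With mouse ERFE against untreated 3 passed (10.7% of all probes). Between human ERFE and mouse ERFE 3 passed (5.0% of all), and with both ERFE proteins against untreated 3 passed (9.86% of all). The arrays of the groups did not overlap at 1 probe with human ERFE against untreated (PDGFRB, 3.74% of all probes), at 1 with mouse ERFE against untreated (VCAN, 6.10% of all), and at 2 between human ERFE and mouse ERFE (PDGFRB and COL1A2, 2.48% of all). The PDGFRB and COL1A2 probes met the filter of 4 arrays only with their human ERFE arrays, where they read high. Their lack of overlap is therefore not independent of the filter. For human ERFE the share at the unadjusted threshold was 17.6% of the 34 probes, above the share over all probes. For mouse ERFE it was 8.82%, below it. These shares carry no test, and the human ERFE count ran from 4 to 9 when single arrays were left out. It includes 1 probe each of ITGB1 and PDGFRA, whose other analysed probes differed by 0.08 at most.

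More of the differences from untreated were above 0 than below. The median log2 difference of the 34 probes was 0.09 with human ERFE and 0.06 with mouse ERFE, each against untreated, where the median of all probes was 0.00 in both. These medians depended on the scaling and on single arrays. With median centring of each array they were 0.17 and −0.01, where those of all probes were 0.07 and −0.06. Without human ERFE 1 the human ERFE median was 0.17, and without mouse ERFE 1 the mouse ERFE median was 0.0057. With human ERFE 28 of the 34 differences were above 0, or 82.4% against 50.7% of all probes, and with mouse ERFE 22 were, or 64.7% against 49.8% of all. Between human ERFE and mouse ERFE the median was 0.09 and 26 differences were above 0, or 76.5%, where the median of all probes was 0.0049 and 51.7% were above 0. Median centring moved the human-minus-mouse median to 0.21 for the matrix genes and to 0.13 for all probes. Without human ERFE 3 the matrix gene median was 0.02. Probes of one gene and genes measured on the same arrays are not independent, and these counts carry no test. The 95% interval of the difference from untreated lay within 2-fold either way for 31 probes with human ERFE and 32 with mouse ERFE, and within 1.5-fold for 21 with each. The median SD within groups was 0.24 for the 34 probes and 0.20 for all analysed probes, on the log2 scale.

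**Figure D2:**
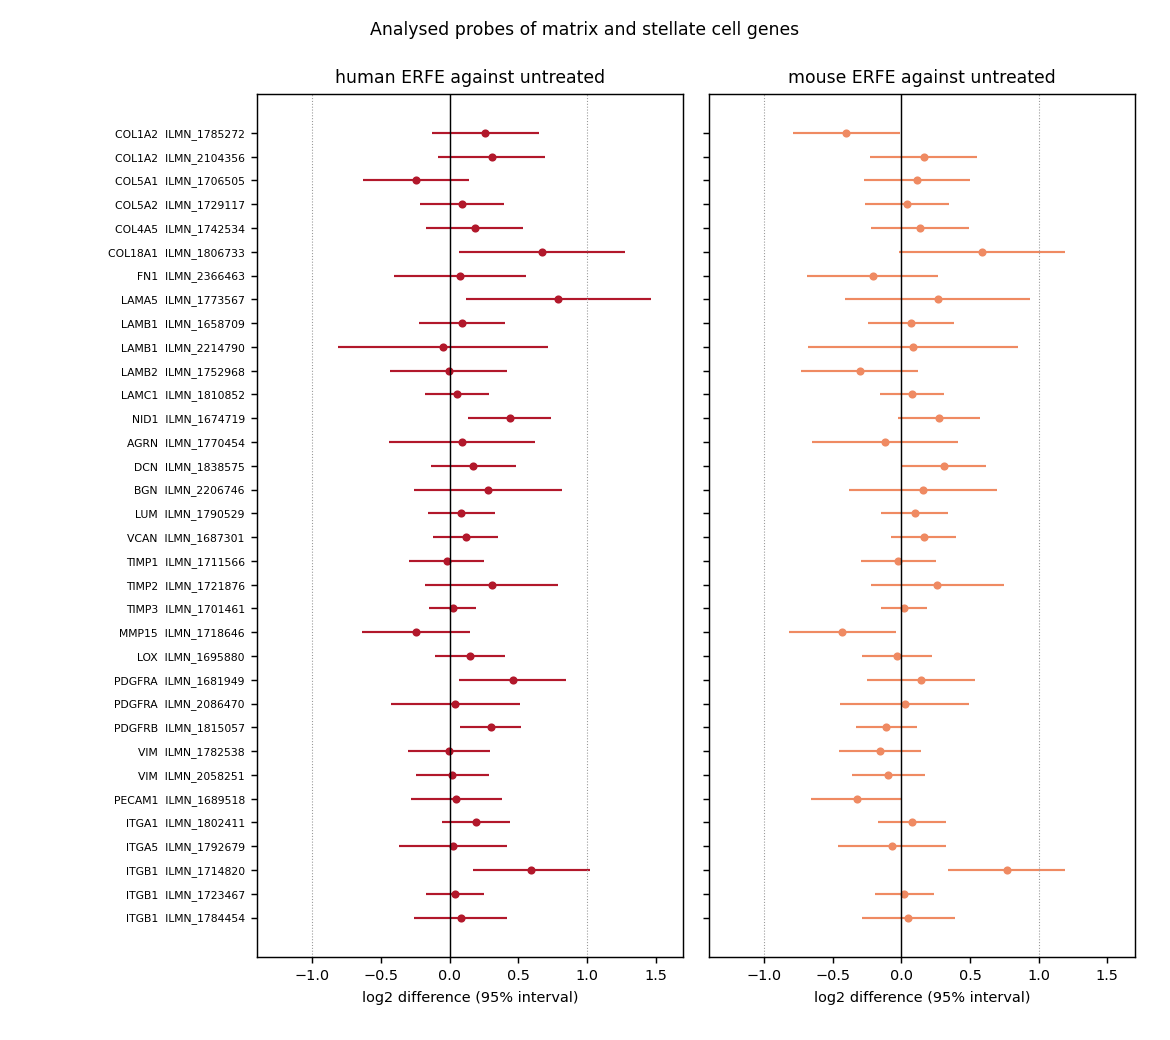
Log2 difference from untreated cells (points) with its 95% interval from limma (lines) for the 34 analysed probes, human ERFE in the left panel and mouse ERFE in the right; dotted lines mark 2-fold. Most intervals cross 0, and ITGB1 ILMN_1714820 at 0.59 with human ERFE and 0.77 with mouse ERFE lies clear of it in both panels.

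Among the fibrillar collagens, 3 of 5 genes were analysed. COL1A2, the second chain of type I collagen, was measured by a pair of probes near the detection limit. Its probe ILMN_1785272 read 6.16, 5.97, 5.72 and 5.62 on the human ERFE arrays 1 to 4, against 5.17, 5.14, 5.48 and 5.04 on the mouse ERFE arrays 1, 2, 3-A4 and 3-B4. The untreated arrays 1 to 4 read 5.19, 6.09, 5.58 and 5.57. All 4 human ERFE arrays lay above all 4 mouse ERFE arrays, and the untreated arrays spanned both. The probe was detected on 4 human ERFE, 0 mouse ERFE and 3 untreated arrays. It met the filter of 4 arrays only with its human ERFE arrays, so its human ERFE differences are not independent of the filter. With mouse ERFE arrays set no lower than their lowest detected signal, the human ERFE mean was at least 1.36-fold above theirs (measured means 5.87 and 5.21, limma adjusted p = 0.866). The mouse ERFE mean was likewise at least 1.14-fold below the untreated mean (5.21 and 5.61, limma adjusted p = 0.454). Such bounds hold for the means of these arrays and carry no sampling error.

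The second COL1A2 probe, ILMN_2104356, read 5.36, 5.43, 5.86 and 5.50 on human ERFE arrays, 5.90, 5.37, 5.14 and 5.17 on mouse ERFE arrays, and 5.34, 5.37, 4.87 and 5.35 on untreated arrays. It was detected on 3, 1 and 1 of them, and its groups overlapped. It met the filter of 4 arrays only with its human ERFE arrays, so its human ERFE difference is not independent of the filter. Its difference from untreated was 0.31 with human ERFE and 0.16 with mouse ERFE, and neither passed the test. With human ERFE the first probe differed by 0.26, the same sign as the second. With mouse ERFE the first probe has only a bound, which lay below untreated (measured difference −0.40), while the second lay above. The COL1A2 probes thus had opposite signs with mouse ERFE, both near the detection limit.

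COL5A1, a chain of the type V collagen that starts fibrils, read 5.02, 5.33, 5.29 and 5.05 on human ERFE arrays, 6.05, 5.08, 5.32 and 5.68 on mouse ERFE arrays, and 5.46, 5.53, 5.47 and 5.21 on untreated arrays. It was detected on 0 human ERFE, 2 mouse ERFE and 3 untreated arrays, so human ERFE has only a bound, at least 1.02-fold lower than untreated and at least 1.10-fold lower than mouse ERFE (limma adjusted p = 0.852 and 0.999). The probe met the filter of 4 arrays only with its mouse ERFE and untreated arrays together, so these bounds are not independent of the filter. COL5A2, the partner chain in type V collagen, was detected on all 12 arrays at 10.47 ± 0.28 with human ERFE, 10.42 ± 0.16 with mouse ERFE and 10.38 ± 0.15 untreated (SD, n = 4 each). Its differences from untreated, 0.09 and 0.04, were smaller than these SDs.

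Of 7 other collagens, COL4A5 and COL18A1 were analysed. COL18A1, the basement membrane collagen from which endostatin is cut, read 5.97, 6.41, 6.88 and 6.58 on human ERFE arrays, 6.20, 5.83, 6.43 and 7.04 on mouse ERFE arrays, and 5.99, 5.91, 5.12 and 6.13 on untreated arrays. The highest readings were all on treated arrays, yet human ERFE 1 and mouse ERFE 2 lay below untreated 4. The log2 difference from untreated was 0.67 (SE 0.28, limma adjusted p = 0.689) with human ERFE and 0.59 (limma adjusted p = 0.478) with mouse ERFE. Its other probe, ILMN_1701937, was detected on 0 arrays and gives no check of this. COL4A5, a type IV collagen chain of basement membranes, stood at 6.12 ± 0.30 with human ERFE, 6.07 ± 0.08 with mouse ERFE and 5.93 ± 0.31 untreated (SD, n = 4 each).

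Basement membrane and adhesive glycoproteins gave 8 analysed probes of 7 genes. NID1 (nidogen), which ties laminin to type IV collagen, had the smallest human ERFE p-value among the 34 probes. It read 6.52, 6.78, 6.53 and 6.66 on human ERFE arrays, 6.24, 6.76, 6.42 and 6.42 on mouse ERFE arrays, and 6.15, 6.01, 6.03 and 6.55 on untreated arrays. Untreated 4 lay among the treated arrays, and untreated 1, 2 and 3 lay below every one of them. The difference from untreated was 0.44 (SE 0.14, limma unadjusted p = 0.0081, adjusted p = 0.527) with human ERFE and 0.28 (limma adjusted p = 0.513) with mouse ERFE.

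LAMA5, the alpha chain of the laminins of mature epithelium, read 6.12, 7.13, 7.46 and 6.80 on human ERFE arrays, 6.15, 5.69, 6.48 and 7.07 on mouse ERFE arrays, and 6.22, 6.33, 5.60 and 6.20 on untreated arrays. Human ERFE 2, 3 and 4 were above every untreated array, while human ERFE 1 was below untreated 1, 2 and 4. Its difference of 0.79 with human ERFE was the greatest of the 34, with an interval of 0.12 to 1.47 (limma adjusted p = 0.667), and 0.26 with mouse ERFE (limma adjusted p = 0.854). Arrays of 1 group ranged over more than 1 log2 unit at this probe in both treated groups.

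LAMB1, the beta chain of the common laminins, was read by a pair of probes detected on all 12 arrays. Probe ILMN_1658709 read 9.22, 9.60, 10.01 and 9.62 on human ERFE arrays, 9.76, 9.47, 9.60 and 9.55 on mouse ERFE arrays, and 9.75, 9.48, 9.42 and 9.44 on untreated arrays. Probe ILMN_2214790 read 5.57, 6.23, 7.50 and 6.39 on human ERFE arrays, 6.92, 6.82, 6.16 and 6.35 on mouse ERFE arrays, and 7.16, 6.38, 6.11 and 6.25 on untreated arrays. At both, human ERFE 1 was the lowest of the 12 and human ERFE 3 the highest, and the groups overlapped. The same arrays were lowest and highest at COL5A2, LAMC1, VCAN, BGN and ITGB1 ILMN_1723467, so this order is not particular to LAMB1. Within the mouse ERFE group the LAMB1 probes differed in order, with array 2 the lowest at the first and 3-A4 the lowest at the second. The differences from untreated were 0.09 and −0.05 with human ERFE and 0.07 and 0.08 with mouse ERFE. ILMN_2214790 had the widest range over the 12 arrays of the 34 probes, 1.93.

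The other laminin chains and agrin did not separate the groups. LAMC1, the gamma chain shared by most laminins, differed from untreated by 0.05 with human ERFE and 0.08 with mouse ERFE, and LAMB2 by −0.01 and −0.30. AGRN (agrin, a heparan sulphate proteoglycan of basement membranes) differed by 0.09 and −0.12. FN1 (fibronectin, made by hepatocytes for plasma) had 3 probes, annotated to different transcripts and detected on 7, 3 and 2 arrays. The 1 analysed, ILMN_2366463, was at 5.65 ± 0.33 with human ERFE, 5.37 ± 0.35 with mouse ERFE and 5.58 ± 0.38 untreated (SD, n = 4 each). Of the other FN1 probes, ILMN_1675646 reached detection on 3 untreated arrays alone and ILMN_1778237 on 2 human ERFE arrays alone, so those probes were detected on different arrays.

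Of the proteoglycans, VCAN, BGN and LUM were detected on all 12 arrays and DCN on 6. VCAN (versican, a large chondroitin sulphate proteoglycan) read 9.38, 9.72, 9.99 and 9.63 on human ERFE arrays, 9.71, 9.71, 9.74 and 9.75 on mouse ERFE arrays, and 9.59, 9.53, 9.54 and 9.59 on untreated arrays. All 4 mouse ERFE arrays lay above all 4 untreated arrays, both groups being tight, while human ERFE arrays fell on either side. The difference from untreated was 0.16 with mouse ERFE (interval −0.07 to 0.40, limma adjusted p = 0.664), since limma pools the spread of all groups, and 0.12 with human ERFE (limma adjusted p = 0.910).

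DCN (decorin, a small leucine-rich proteoglycan of collagen fibrils) was detected on 1 human ERFE, 4 mouse ERFE and 1 untreated array at probe ILMN_1838575, and on 0 at its other 3 probes. The platform annotation ties those 3 to RefSeq transcripts, but ILMN_1838575 to a sequence record outside RefSeq. Whether ILMN_1838575 reads decorin mRNA was not tested. That probe read 5.31, 5.34, 5.22 and 5.73 on human ERFE arrays, 5.35, 5.49, 5.58 and 5.72 on mouse ERFE arrays, and 4.92, 5.21, 5.27 and 5.51 on untreated arrays. The groups overlapped. Its difference from untreated was 0.17 with human ERFE and 0.31 with mouse ERFE (limma adjusted p = 0.883 and 0.469). The probe met the filter of 4 arrays only with its mouse ERFE arrays, so the mouse ERFE difference is not independent of the filter. BGN (biglycan), close kin of decorin, differed by 0.28 and 0.16, and LUM (lumican, a keratan sulphate member of that family) by 0.08 and 0.10, at the 1 of 2 LUM probes that was detected.

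Remodelling enzymes and inhibitors gave 5 analysed genes, with median differences from untreated of 0.02 with human ERFE and −0.02 with mouse ERFE. MMP15, a membrane-bound matrix metalloproteinase, was the 1 of 3 listed metalloproteinases detected. It read 6.55, 6.99, 7.0 and 6.77 on human ERFE arrays, 6.50, 6.61, 6.79 and 6.68 on mouse ERFE arrays, and 7.01, 7.36, 7.42 and 6.51 on untreated arrays. Untreated 1, 2 and 3 lay above every treated array and untreated 4 at the low end of all 12. The difference was −0.25 (limma adjusted p = 0.854) with human ERFE and −0.43 (SE 0.18, limma adjusted p = 0.417) with mouse ERFE.

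TIMP1, TIMP2 and TIMP3 are the secreted inhibitors of metalloproteinases. TIMP3 was the steadiest of the 34 probes. It lay between 7.19 and 7.24 on human ERFE arrays, 7.12 and 7.29 on mouse ERFE arrays, and 7.05 and 7.28 on untreated arrays, and differed from untreated by 0.02 with each protein, with intervals within −0.15 to 0.19. TIMP1 differed by −0.02 with each protein, its intervals lying within −0.30 to 0.25. TIMP2 differed by 0.31 with human ERFE and 0.26 with mouse ERFE, at the 1 of 2 probes that was detected, with a human ERFE SD of 0.51. LOX (lysyl oxidase, which cross-links collagen and elastin) differed by 0.15 and −0.03.

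Of 6 stellate, mesenchymal and endothelial markers, 4 were analysed. PDGFRB, the platelet-derived growth factor receptor that marks stellate cells and pericytes, read 5.69, 5.37, 5.43 and 5.73 on human ERFE arrays, 5.32, 5.04, 5.12 and 5.10 on mouse ERFE arrays, and 5.27, 5.29, 5.31 and 5.15 on untreated arrays. All 4 human ERFE arrays lay above all 8 others. It was detected on 3 human ERFE, 1 mouse ERFE and 0 untreated arrays, at levels next to the detection limit. By the means of these arrays, human ERFE was at least 1.13-fold higher than untreated (limma adjusted p = 0.574). It differed from mouse ERFE by 0.41 on the log2 scale (SE 0.10, limma unadjusted p = 0.0017, adjusted p = 0.866). The probe met the filter of 4 arrays only with its human ERFE arrays, so these differences are not independent of the filter. With mouse ERFE the measured mean was 5.15 against 5.25 untreated.

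PDGFRA, the sister receptor found on mesenchymal cells, had both probes detected on all 12 arrays. Probe ILMN_1681949 read 6.39, 6.11, 6.18 and 6.76 on human ERFE arrays, 5.90, 6.34, 6.22 and 5.72 on mouse ERFE arrays, and 5.86, 5.73, 6.29 and 5.73 on untreated arrays. Probe ILMN_2086470 read 5.99, 5.96, 6.49 and 5.84 on human ERFE arrays, 6.39, 5.92, 5.81 and 6.10 on mouse ERFE arrays, and 6.66, 5.80, 6.05 and 5.62 on untreated arrays. Human ERFE 4 was the highest array at the first probe and in the lower part of the range at the second. The difference of human ERFE from untreated was 0.46 (limma adjusted p = 0.670) at the first and 0.04 (limma adjusted p = 0.991) at the second. With mouse ERFE these were 0.14 and 0.02.

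VIM (vimentin, the mesenchymal intermediate filament, also made by many cultured tumour cells) was detected by both probes on all 12 arrays. Probe ILMN_1782538 read 12.68, 13.06, 13.22 and 13.12 on human ERFE arrays, 13.09, 12.81, 12.77 and 12.81 on mouse ERFE arrays, and 13.24, 13.02, 13.11 and 12.73 on untreated arrays. Probe ILMN_2058251 read 12.01, 12.56, 12.47 and 12.20 on human ERFE arrays, 12.34, 12.03, 12.14 and 12.29 on mouse ERFE arrays, and 12.39, 12.29, 12.30 and 12.20 on untreated arrays. The groups overlapped at both. The differences from untreated were 0.00 and 0.02 with human ERFE and −0.16 and −0.09 with mouse ERFE.

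PECAM1, an adhesion molecule of endothelium that platelets and leukocytes also carry, read 6.92, 6.53, 6.72 and 6.35 on human ERFE arrays, 6.65, 6.08, 6.33 and 5.98 on mouse ERFE arrays, and 6.58, 6.47, 6.68 and 6.61 on untreated arrays. Mouse ERFE 2, 3-A4 and 3-B4 lay below all 8 other arrays, and mouse ERFE 1 lay among them. Human ERFE differed from mouse ERFE by 0.37 (SE 0.15, limma unadjusted p = 0.029, adjusted p = 0.958), and mouse ERFE from untreated by −0.32 (limma adjusted p = 0.472). The MHC class II level of those 3 mouse ERFE arrays was 6.32, 5.83 and 5.93, against 8.81 on mouse ERFE 1, and the part of that in the PECAM1 values was not tested.

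**Figure D3:**
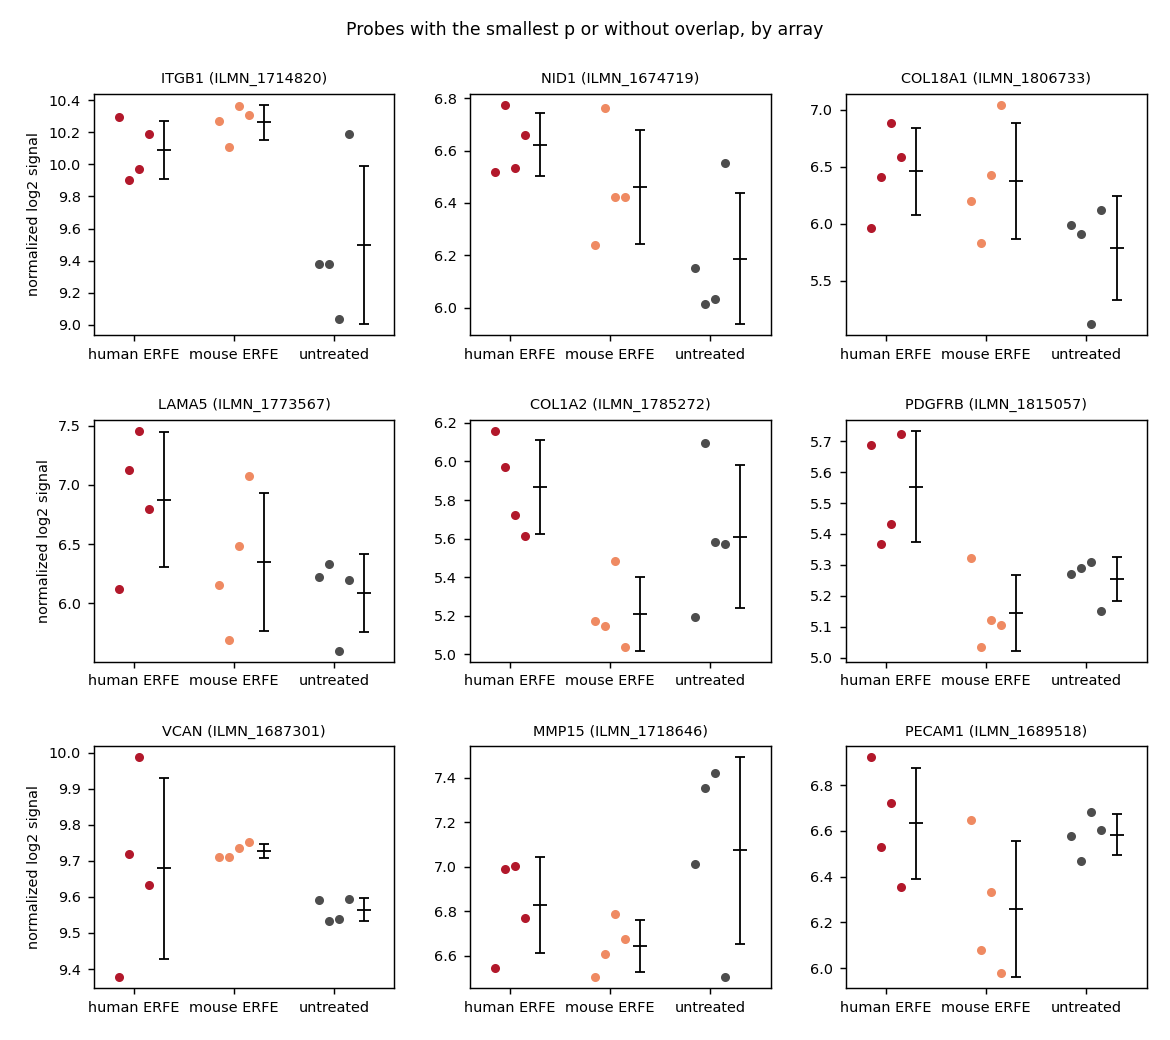
Normalized log2 signal (vertical axes, each with its own scale) on each array for 9 probes with the smallest p-values or with groups that do not overlap, in the order human ERFE, mouse ERFE, untreated; the bar beside each group is its mean ± SD (n = 4). Human ERFE lies above both other groups at PDGFRB, and untreated 4 stands with the treated arrays at ITGB1, NID1 and MMP15.

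The integrin subunits turned on 1 probe. ITGB1, the beta chain of most integrins that bind collagen, laminin and fibronectin, had 4 probes. Probe ILMN_1714820 read 10.29, 9.90, 9.97 and 10.19 on human ERFE arrays, 10.27, 10.11, 10.37 and 10.31 on mouse ERFE arrays, and 9.38, 9.38, 9.03 and 10.19 on untreated arrays. Untreated 1, 2 and 3 lay below every treated array, and untreated 4 lay among them. The difference from untreated was 0.59 (SE 0.20, limma adjusted p = 0.533) with human ERFE and 0.77 (SE 0.20, limma adjusted p = 0.178) with mouse ERFE. It was 0.68 for both proteins averaged (limma adjusted p = 0.189).

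Leaving out untreated 4 moved this probe past the threshold in limma. Its differences then were 0.83 with human ERFE (adjusted p = 0.0201), 1.00 with mouse ERFE (adjusted p = 0.00413) and 0.91 with both (adjusted p = 0.00296). Over the whole array, 85 probes were called with human ERFE, 273 with mouse ERFE and 287 with both once that array was left out, and 17, 23 and 29 with it. Untreated 4 is also the untreated array with the low MHC class II level. With that level as a covariate the differences of the probe were 0.49, 0.63 and 0.56, and did not pass (limma adjusted p = 0.696, 0.358 and 0.362). The treated arrays with a high MHC class II level were human ERFE 1 and 3 and mouse ERFE 1 (8.04, 7.76 and 8.81), where the probe stood at 10.29, 9.97 and 10.27. As a gene, by the mean of its detected probes, ITGB1 differed from untreated by 0.24 with human ERFE and 0.28 with mouse ERFE.

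The other ITGB1 probes did not share that pattern. The platform annotation ties the 3 analysed probes to different transcripts of the gene, and the part of that in their differences was not tested. ILMN_1723467 read 12.76, 12.83, 13.13 and 12.90 on human ERFE arrays, 13.01, 12.84, 12.88 and 12.83 on mouse ERFE arrays, and 13.02, 12.82, 12.87 and 12.76 on untreated arrays. Its groups overlapped, and its differences from untreated were 0.04 with human ERFE (interval −0.18 to 0.25) and 0.02 with mouse ERFE (interval −0.19 to 0.23). ILMN_1784454, detected on 10 arrays, read 5.80, 5.79, 5.53 and 5.51 on human ERFE arrays, 6.09, 5.35, 5.75 and 5.33 on mouse ERFE arrays, and 5.72, 5.54, 5.58 and 5.46 on untreated arrays, with differences of 0.08 and 0.05. The last, ILMN_1754233, was detected on 0 arrays. The partner chains ITGA1, of a collagen receptor, and ITGA5, of the fibronectin receptor, differed from untreated by 0.19 and 0.02 with human ERFE and by 0.08 and −0.07 with mouse ERFE.

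Several probes of one gene moved together over the arrays for LAMB1 and VIM, and no such relation passed for COL1A2, PDGFRA or ITGB1. Over the 12 arrays, as 1 of 7 probe pairs compared, the LAMB1 probes had a Pearson r of 0.87 (permutation p = 0.00036, adjusted p = 0.00252) and a Spearman rho of 0.76 (permutation adjusted p = 0.0200). Without human ERFE 1 and 3, the arrays farthest from the median, r was 0.62. The VIM probes had r = 0.74 (permutation adjusted p = 0.0215) and rho = 0.76 (permutation adjusted p = 0.0200), and r = 0.66 without human ERFE 1 and untreated 4. The COL1A2 probes had r = 0.02 and the PDGFRA probes r = −0.14, with permutation adjusted p = 0.961 and 0.936. The 3 ITGB1 pairs, whose probes are annotated to different transcripts of the gene, had r = −0.14, 0.06 and 0.24, none of which passed. The ITGB1 values depended on the scaling, being 0.19, 0.28 and 0.61 with median centring of each array, while LAMB1 then had 0.88 and VIM 0.89. These pairs share their 12 arrays, and COL1A2 and ILMN_1784454 lay near the detection limit, where the order of arrays is least certain. Human ERFE 1 was the lowest array at both LAMB1 and both VIM probes, and also at COL5A2, LAMC1, VCAN and BGN. Whether the LAMB1 and VIM relations go beyond a pattern that arrays share over genes was not tested.

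**Figure D4:**
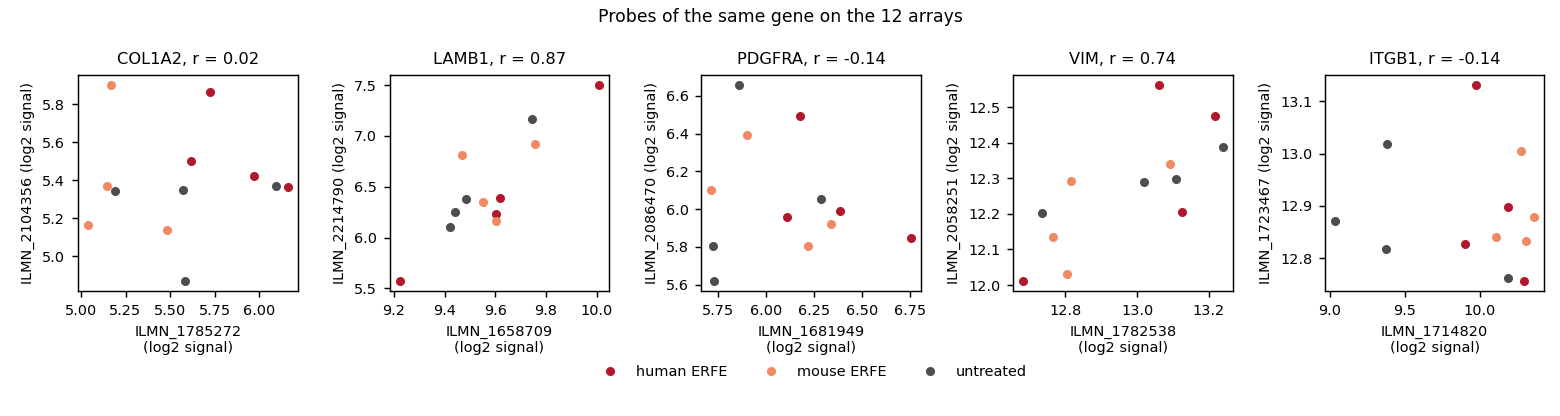
Normalized log2 signal of one probe of a gene (horizontal axis) against another probe of that gene (vertical axis) on the 12 arrays, coloured by group. The points of LAMB1 (r = 0.87) and VIM (r = 0.74) rise together, and those of COL1A2, PDGFRA and ITGB1 show no such relation at this scaling.

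Beyond the 46 genes, 5 further lists of matrix genes gave 0 probes past an adjusted p-value of 0.05 in limma in each of the 4 comparisons. Of 26 further collagens with a probe, 7 were analysed, with median log2 differences from untreated of −0.08 with human ERFE and −0.10 with mouse ERFE. Collagen folding and processing genes (24 probes of 20 genes) had medians of 0.05 and 0.01. Further glycoproteins and proteoglycans (36 probes of 27 genes) had medians of 0.01 and −0.07. Further proteases and inhibitors (26 probes of 19 genes) had medians of 0.02 and 0.08, and further integrins and matrix receptors (25 probes of 18 genes) had −0.0049 and −0.03. In these lists 0, 1, 4, 2 and 1 probes had an unadjusted limma p-value under 0.05 with human ERFE, and 1, 3, 4, 3 and 2 with mouse ERFE. In all these were 8 of 118 probes with human ERFE and 13 of 118 with mouse ERFE, shares near the 6.64% and 10.7% of all probes.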

How the data were processed

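RNA of Huh7 cells on 12 Illumina arrays was grouped by the titles, 4 arrays per group. The deposited intensity of each probe is a linear bead signal, per the file headers and the values, and the deposited detection p-value sets it against negative controls. A deposited table described as normalized held the same intensity values (567876 of 567876 equal). Lumi and limma appear in the submitters' processing notes, without versions. How beads were summarised, and the genome build, is not given in the sources used here; coordinates are omitted.

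Log2 values came from limma 3.58.1 under R 4.3.3 with statmod 1.5.0. Its neqc function corrected background from inferred controls, added an offset of 16 and applied quantile normalization. This differs from a test of the deposited values, which were not normalized between arrays. Probes were required to reach a detection p of 0.05 on 4 arrays or more. LmFit and eBayes then fitted the 3 groups over the 12 arrays together, with 9 residual degrees of freedom and a prior of 3.50. P-values are two-sided and adjusted by Benjamini-Hochberg over all 18646 probes, with a threshold of 0.05. The code was tested on simulated data. A probe detected on no array of a group has only a bound there, set at each array's lowest detected signal. The bound holds for the means of these arrays and carries no sampling error. The number of arrays limits the precision. Probe pairs were compared with 100000 permutations.

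Of 47323 probes, 30113 had 1 gene symbol in the platform annotation, 8 had several and 17202 had none. All 45 genes with a probe kept their symbol in a RefSeq table (GRCh38.p14) matched by Entrez ID. The genes, lists and tests were chosen with earlier results of these data known. Values per array are given for the genes with the 5 smallest p-values in each comparison, those whose groups do not overlap, and those with more than 1 analysed probe. Alternatives changed the normalization, background, offset, probe filter, probe choice per gene, spread estimate, arrays and groups fitted, and added blocks or the MHC class II level. Same-numbered arrays did not deviate together: of 12 pairs between groups, 2 had a correlation of their deviations over 0.1 (range −0.32 to 0.32), so the numbers were not used to pair samples.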

Additional observations from a re-analysis of the deposited data

Results flagged for a closer look

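In 6 of 102 groups of 4 arrays, 1 array stood apart from the other 3 by a gap that took most of the group's whole range (past Dixon's critical share), where chance gives about 1 group in 20. The share was 0.949 for COL1A2 ILMN_2104356 in untreated cells, where untreated 3 read 4.87 and the others 5.34 to 5.37. Mouse ERFE 1 stood high at 3 probes. Its share was 0.943 at COL5A2 (10.66 against 10.33 to 10.35 on the other mouse ERFE arrays), 0.885 at LOX (9.28 against 8.89 to 8.93) and 0.849 at VIM ILMN_1782538 (13.09 against 12.77 to 12.81). Mouse ERFE 2 stood low at 2 probes, with a share of 0.836 at FN1 ILMN_2366463 (4.85 against 5.47 to 5.60) and 0.851 at LAMC1 (10.20 against 10.38 to 10.41). Mouse ERFE 1 is the mouse ERFE array with the high MHC class II level.

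At COL1A2 ILMN_1785272 all 4 human ERFE arrays were above all 4 mouse ERFE arrays. The measured means were 0.66 apart on the log2 scale, but the probe was detected on 0 mouse ERFE arrays. This leaves a bound for the means of these arrays, at least 1.36-fold higher in human ERFE, without sampling error. The probe met the filter of 4 arrays only with its human ERFE arrays, so the lack of overlap and the bound are not independent of the filter. The test of the difference in limma gave an adjusted p of 0.866, and the other COL1A2 probe differed by 0.14.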

How the results depend on the processing

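Under 27 alternatives (26 for both ERFE proteins against untreated), the number of matrix gene probes past the threshold in limma stayed at 0 in each comparison, except that leaving out untreated 4 gave 1 with human ERFE, 1 with mouse ERFE and 1 with both, ITGB1 ILMN_1714820 each time (log2 difference 0.83, 1.00 and 0.91). Leaving out 1 array at a time thus gave 0 to 1 in these comparisons and 0 between human ERFE and mouse ERFE. The median log2 difference of the probes ran from 0.05 to 0.17 with human ERFE, −0.01 to 0.11 with mouse ERFE, 0.02 to 0.21 between human ERFE and mouse ERFE and 0.02 to 0.12 with both. With the replicate block the medians were 0.09, 0.04, 0.07 and 0.06, 0 of the probes passed in each comparison, and the smallest limma adjusted p was 0.0747 (mouse ERFE, ITGB1 ILMN_1714820). Over the whole array the alternatives called 2 to 85 probes with human ERFE, 0 to 273 with mouse ERFE and 5 to 287 with both. The block called 4, 2, 1 and 14 probes, against 17, 23, 1 and 29 without it. Of 552 values of the 21 single results, 549 kept their sign and side of the threshold, the exceptions being ITGB1 ILMN_1714820 without untreated 4. Their sizes moved more. Without background correction 17 of the 21 were reduced by over 1.5 times: with human ERFE LAMA5 was 0.34, NID1 0.17, PDGFRA 0.16 and PDGFRB 0.09. With an offset of 50, 7 were, and the cause was not tested. Probes on 0 arrays of a group give bounds only.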

Other observations

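Outside the 46 genes, a few matrix genes with the smallest p-values in their lists can be given as values, none past an adjusted p-value of 0.05 in limma. THBS1 (thrombospondin, a matricellular protein known to activate latent TGF-beta) differed from untreated by 0.47 with human ERFE (SE 0.13, adjusted p = 0.472) and 0.40 with mouse ERFE (adjusted p = 0.301). LOXL4, a lysyl oxidase family enzyme, differed by 0.26 with human ERFE and 0.29 with mouse ERFE (limma adjusted p = 0.595 and 0.276). ADAM10, the membrane protease that sheds cell surface proteins, differed by 0.34 with human ERFE and 0.39 with mouse ERFE at probe ILMN_1718946 (limma adjusted p = 0.681 and 0.317), and by 0.03 and 0.40 at probe ILMN_2148360 (limma adjusted p = 0.992 and 0.459). CD151, a tetraspanin that partners laminin-binding integrins, differed by 0.46 with human ERFE and 1.21 with mouse ERFE at probe ILMN_1661589 (SE 0.30, limma adjusted p = 0.838 and 0.167). Its other probes differed by −0.01 and −0.05 (ILMN_1794740) and by 0.05 and 0.04 (ILMN_2326713). COL2A1, the cartilage collagen, differed by −0.09 with human ERFE and −0.35 with mouse ERFE (limma adjusted p = 0.952 and 0.378).

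The mean log2 signal of 9 epithelial marker probes (CDH1, EPCAM, KRT8, KRT18, KRT19 and CLDN1) lay between 8.82 and 9.05 on human ERFE arrays, 9.01 and 9.08 on mouse ERFE arrays, and 8.47 and 9.03 on untreated arrays. Untreated 4 held the 9.03, while untreated 1, 2 and 3 were at 8.67, 8.47 and 8.53. This gap lay in KRT18: its probe ILMN_1803408 read 5.82, 5.36 and 5.02 on untreated 1, 2 and 3 against 8.62 on untreated 4, while CDH1 read 9.06, 9.05, 9.14 and 9.05 on untreated 1 to 4 and KRT19 was lowest on untreated 4, at 7.09. CDH1 differed from untreated by 0.39 with human ERFE and 0.40 with mouse ERFE (limma adjusted p = 0.527 and 0.286). KRT19 differed by −0.30 and −0.53 (limma adjusted p = 0.718 and 0.166). The mean of 12 macrophage marker probes lay between 7.46 and 7.58 on human ERFE arrays, 7.42 and 7.83 on mouse ERFE arrays, and 7.43 and 7.99 on untreated arrays, and CD163 was detected on 0 arrays. The mean covers unlike members. TYROBP read 7.10, 8.26, 7.50 and 4.81 on untreated 1 to 4, and 7.44, 5.77, 4.78 and 4.67 on mouse ERFE 1, 2, 3-A4 and 3-B4. LYZ ILMN_1815205 read 13.47, 13.52, 13.41 and 13.62 on untreated 1 to 4. CD14 ILMN_2396444 read 8.62, 8.62, 8.61 and 8.62 on these arrays. It differed from untreated by −0.30 with human ERFE and −0.31 with mouse ERFE (limma adjusted p = 0.527 and 0.266). The CD14 probe ILMN_1740015, detected on 4 arrays, differed by −0.37 and −0.46 (limma adjusted p = 0.632 and 0.269).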
